A study of Oryzias latipes with 10 samples.

Results

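Nuclear receptors are transcription factors that are switched on or off by small molecules such as thyroid hormone, vitamin D, fatty acids, bile acids and steroids. Many bind DNA as partners of a retinoid X receptor, and recruit coactivators or corepressors that open or close chromatin. In hepatocytes they act beside factors of the HNF4, FOXA, ONECUT and CEBP families, which keep up the expression of plasma proteins and metabolic enzymes. The genes described here are the members of these families that carry a standard symbol in medaka (Oryzias latipes), a small freshwater fish. They were chosen by the start of their symbol, with 2 matches left out that are not reported here, and by a level of at least 1 RPM (reads per 1000000 reads) in at least 5 of 10 libraries. Of 25795 genes in the table, 47 matched by symbol and 37 of these passed the level, out of 14984 genes that did so in all.

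Livers came from wild-type fish (WT) and from fish with the phod1 gene, written pd1 in some labels, knocked out (KO), and each genotype had 5 libraries. All fish lived under long days and were sampled at 12:00. The labels give no knockout allele, sex, age or number of animals per library. The p-values therefore cover the spread between libraries, which may be technical. The phod1 transcript itself was not analysed here. The design asks what losing phod1 does to the liver's RNA, read from the 3' ends of transcripts.

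Sequencing depth ran from 4542721 to 10112313 reads per library. Fold changes compare KO with WT as differences of mean log2(RPM + 1), so that those of low genes come out too small. Each has the standard error (SE) and adjusted p of limma, a linear model fitted over all 14984 genes. TMM scaling divides each library by a single factor, chosen as if most genes were unchanged. The median fold change of all genes was -0.19 on this log2 scale, and -0.01 after TMM scaling. A member near -0.19 therefore lay at the level of the typical gene. WT3 and KO2 are the libraries nearest to the other genotype in the estrogen receptor gene esr1, whose values were 105, 124, 69.2, 97.9 and 113 RPM in WT1 to WT5 and 14.5, 94.2, 19.2, 21.7 and 22.1 RPM in KO1 to KO5. Values without WT3 and KO2 are given for calls among the members and for part of the other described members. They are not given for the related genes described from lists.

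Of the 37 genes, the vitamin D receptor gene vdralpha alone fell in KO liver in limma, and none rose. At an adjusted p under 0.05, 1 gene was lower and 0 were higher, which is 2.70% of the members. Of all tested genes 1.68% were lower and 1.17% higher, 2.85% in all. At an unadjusted limma p under 0.05, 5 members were lower and 1 was higher, against 11.7% and 4.64% of all genes. edgeR, a count test run on 9 libraries, called 0 members and 1.19% of all genes. DESeq2, another count test, called vdralpha and 3.26% of all genes. It gave no adjusted p for several low members, among them vdr, nr2c2 and onecut1, so it did not decide on these. In limma after TMM scaling 0 members and 2.97% of all genes were called. The median fold change of the members was -0.10 on the log2 scale, and 0.10 after TMM scaling. On the deposited values 22 members lay below 0 and 15 above, while after TMM 17 lay below and 20 above. The share of members called in limma was thus close to that of all genes.

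**Figure D1:**
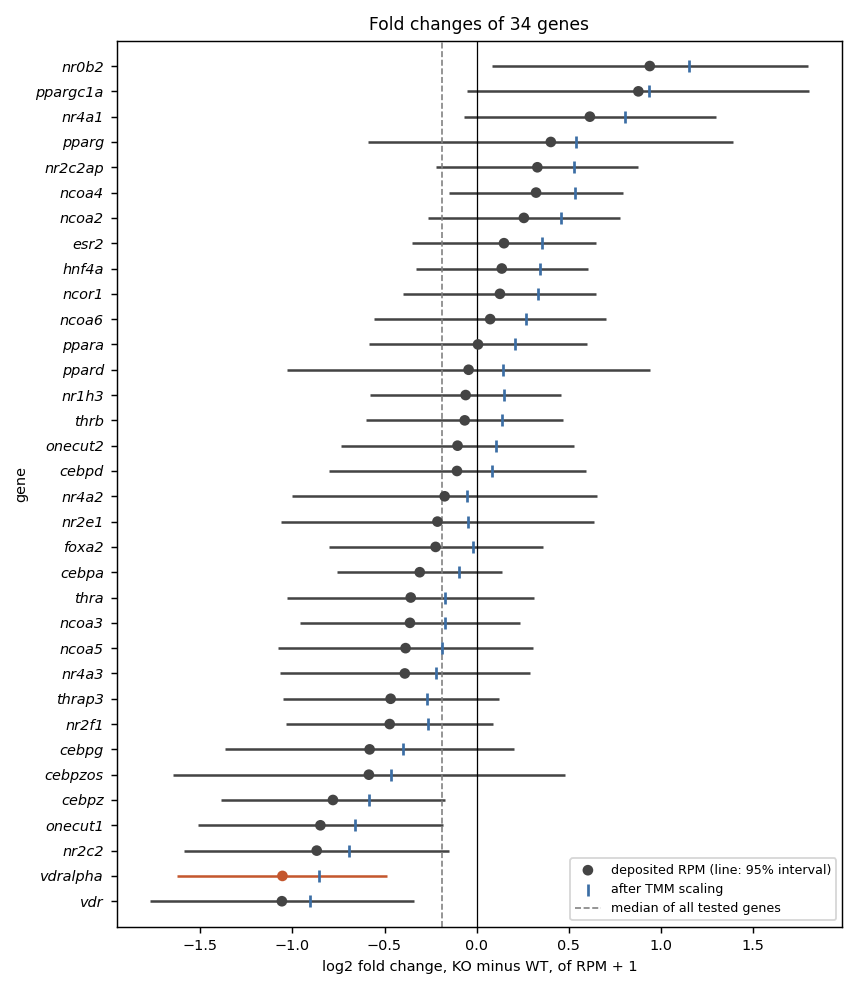
Log2 fold change of RPM + 1, KO minus WT, for 34 of the 37 genes, with 95% intervals of the limma fit as lines, the value after TMM scaling as a blue tick and the median of all tested genes (-0.19) as a dashed line. The orange gene, vdralpha, is the member with an adjusted p under 0.05, at -1.05, and nr0b2 stands at the other end at 0.94.

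Both vitamin D receptor genes stood lower in knockout liver. Fish carry a pair of these receptors, which bind the hormonal form of vitamin D and control calcium handling and vitamin D breakdown in vertebrates. The level of vdralpha was 19.4, 18.9, 17.3, 23.0 and 11.5 RPM in WT1 to WT5, and 9.49, 5.94, 9.10, 5.49 and 11.1 RPM in KO1 to KO5. On these deposited values every KO library lay below every WT library, though KO5 and WT5 were close. The mean was 18.0 ± 4.17 RPM in WT and 8.22 ± 2.41 RPM in KO (SD, n = 5 per group), 2.19 times higher in WT. Its log2 fold change was -1.05 ± 0.27 (SE, limma adjusted p = 0.0395), with a 95% interval of -1.62 to -0.48.

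The second receptor gene, vdr (synonym vdrbeta), had 5.53, 2.80, 2.77, 4.53 and 5.71 RPM in WT1 to WT5 and 2.33, 1.54, 1.35, 0.956 and 1.29 RPM in KO1 to KO5. Here too the groups did not overlap on the deposited values, and WT2 and WT3 lay nearest to the KO libraries. The log2 fold change was -1.06 ± 0.34 (limma adjusted p = 0.116), so it did not pass. These levels rest on 7 to 56 reads per library, against 27 to 152 reads for vdralpha. The labels do not say how reads shared by close gene copies were counted.

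Of the 37 members, vdralpha and vdr were those whose groups did not overlap on the deposited values, or 5.41% against 3.62% of all tested genes. Both were lower in KO. Of all tested genes 2.60% lay lower without overlap and 1.03% higher. The separation did not hold after TMM scaling, with factors of 0.782 in KO1, 0.975 in WT5, 1.084 in WT2 and 1.111 in WT3. Divided by these, KO1 lies above WT5 in vdralpha, and above WT2 and WT3 in vdr. The call of vdralpha was lost after TMM scaling (log2 fold change -0.85, limma adjusted p = 0.101), with edgeR (adjusted p = 0.149) and in limma without WT3 and KO2 (-0.97, adjusted p = 0.0593). It was also lost when WT1, WT2, WT4 or any 1 of the 5 KO libraries was left out alone, at limma adjusted p-values up to 0.130, but the log2 fold change stayed between -1.20 and -0.94. In whole liver, fewer cells of a type and less RNA per cell cannot be told apart.

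**Figure D2:**
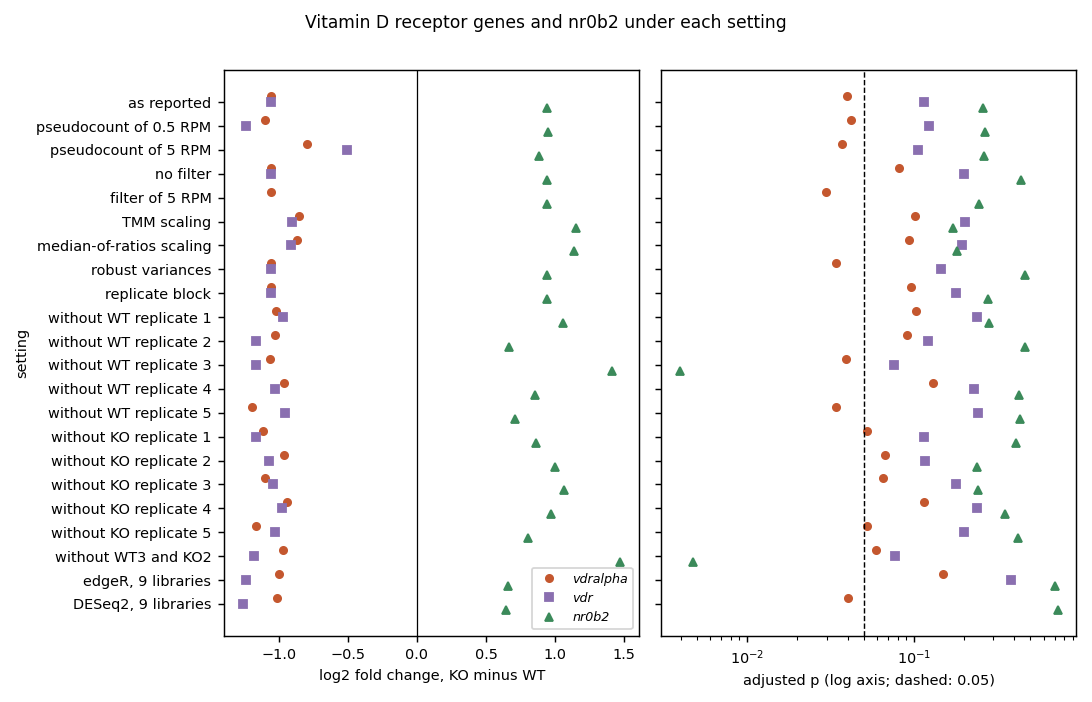
Log2 fold change (left) and adjusted p on a log axis (right) of vdralpha, vdr and nr0b2 under each processing setting, with the threshold of 0.05 dashed. Points of vdralpha lie on both sides of the threshold while its fold change stays between -1.20 and -0.80, and nr0b2 passes in the settings that leave out WT3.

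The receptors of thyroid hormone and of fatty acids showed no call. Thyroid hormone receptor alpha, thra, averaged 9.31 ± 2.90 RPM in WT against 7.16 ± 2.44 RPM in KO. Receptor beta, thrb, averaged 14.6 ± 4.26 RPM in WT against 13.7 ± 2.73 RPM in KO. The interval of thrb ran from -0.60 to 0.47 on the log2 scale, so a change of 2-fold lay outside it. That of thra, from -1.03 to 0.31, took in a 2-fold fall. The PPAR genes encode receptors for fatty acids and their derivatives. Of these ppara, a driver of fatty acid oxidation in mammalian liver, had 17.1, 10.3, 17.9, 18.9 and 15.3 RPM in WT1 to WT5 and 23.1, 21.8, 15.0, 15.1 and 8.11 RPM in KO1 to KO5. The KO libraries spread on both sides of the WT libraries, and the log2 fold change was 0.01, with an interval of -0.59 to 0.60. Its relatives ppard and pparg, the latter known for fat cell formation, had log2 fold changes of -0.04 ± 0.47 and 0.40 ± 0.47. Their values ran from 1.21 to 8.36 and from 0 to 4.90 RPM in WT, and from 0.440 to 6.76 and from 1.83 to 6.76 RPM in KO. The spread of both genes is wide enough that their intervals reach past 1 log2 unit on at least 1 side.

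The small heterodimer partner gene nr0b2 had the largest positive fold change of the members. Its product lacks a DNA-binding domain and represses other nuclear receptors, and in mammalian liver it is induced by bile acids and curbs their synthesis. Its level was 93.5, 30.8, 252, 53.2 and 34.8 RPM in WT1 to WT5, and 161, 110, 91.0, 120 and 191 RPM in KO1 to KO5. WT3 held the highest value of all 10 libraries, and the groups overlapped. The log2 fold change was 0.94 ± 0.41 (limma adjusted p = 0.259). Without WT3 it was 1.41 (limma adjusted p = 0.00397), and without WT3 and KO2 1.47 (0.00477), so the call depended on WT3. Both libraries lay nearest to the other genotype in esr1, so leaving them out can draw the groups apart. Over all genes the limma calls went from 427 to 844 without WT3, and to 1045 without WT3 and KO2. Even without WT3 the groups of nr0b2 overlapped, with WT1 at 93.5 RPM above KO3 at 91.0 RPM. edgeR, whose 9 libraries held WT3 but not KO5, the highest KO library, gave 0.66 (adjusted p = 0.697). In limma without KO5 alone the log2 fold change was 0.80 (limma adjusted p = 0.421). The bile acid receptor gene nr1h4, whose product induces nr0b2 in mammals, did not reach the level for testing, at 0 to 1.38 RPM in WT and 0.220 to 1.23 RPM in KO.

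For nr1h3 and hnf4a the group means lay close together. The oxysterol receptor gene nr1h3, which promotes cholesterol export and fat synthesis, averaged 31.7 ± 4.13 RPM in WT and 32.1 ± 13.3 in KO, with KO2 highest at 53.5 RPM. Its log2 fold change was -0.06 (interval -0.58 to 0.46), and 0.15 after TMM scaling. The gene hnf4a, whose product controls a large share of hepatocyte genes, had 23.9, 19.9, 27.3, 28.2 and 26.6 RPM in WT1 to WT5 and 19.8, 25.5, 24.7, 38.1 and 33.3 RPM in KO1 to KO5. KO4 and KO5 lay above the WT range and KO1 just below it. The log2 fold change of hnf4a was 0.14 ± 0.22, with an interval of -0.33 to 0.60.

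The estrogen receptor beta gene esr2 (synonym ESR2b) did not pass. It had 21.9, 22.2, 42.0, 25.8 and 19.2 RPM in WT1 to WT5 and 25.8, 36.3, 22.5, 31.4 and 26.2 RPM in KO1 to KO5. WT3 was the highest WT library and KO2 the highest KO library of esr2. Its log2 fold change was 0.15 ± 0.24 (limma adjusted p = 0.802), and that of esr1, which is outside the symbols used here, -1.88 ± 0.36 (limma adjusted p = 0.00646, edgeR adjusted p = 0.142). The difference between the genes' fold changes was not tested. A second table entry with the symbol esr2 was listed at 0 in all 10 libraries.

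Among the orphan receptors, which have no known physiological ligand or had none when named, nr2c2 lay lowest. It encodes a testicular receptor that competes with other receptors for their DNA sites. Its values were 4.15, 7.53, 5.53, 8.46 and 5.61 RPM in WT1 to WT5 and 3.66, 2.20, 4.06, 1.19 and 4.35 RPM in KO1 to KO5. KO5 lay just above WT1, and the other KO libraries were below all of WT. The log2 fold change of nr2c2 was -0.87 ± 0.34 (limma adjusted p = 0.209), from 10 to 56 reads per library. The COUP-TF gene nr2f1, often a repressor of other receptors, averaged 46.0 ± 13.7 RPM in WT against 33.0 ± 11.2 RPM in KO, a log2 fold change of -0.47 ± 0.27 (limma adjusted p = 0.396). The tailless gene nr2e1, known for its part in neural stem cells, stood at 1.04 to 3.14 RPM in WT and 0.220 to 3.16 RPM in KO.

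The NR4A receptors are early response genes that act without a known ligand and, in mammalian liver, are induced by glucagon signalling. For nr4a1 the values were 2.59, 5.95, 9.59, 7.25 and 6.12 RPM in WT1 to WT5 and 13.3, 9.25, 6.27, 7.88 and 12.8 RPM in KO1 to KO5. KO1 and KO5 lay above all of WT, and the other KO libraries fell within the WT range. Its log2 fold change was 0.61 ± 0.33 (limma adjusted p = 0.369). The relatives nr4a2 and nr4a3 lay on the other side of 0, at -0.17 ± 0.40 and -0.39 ± 0.32 on the log2 scale.

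**Figure D3:**
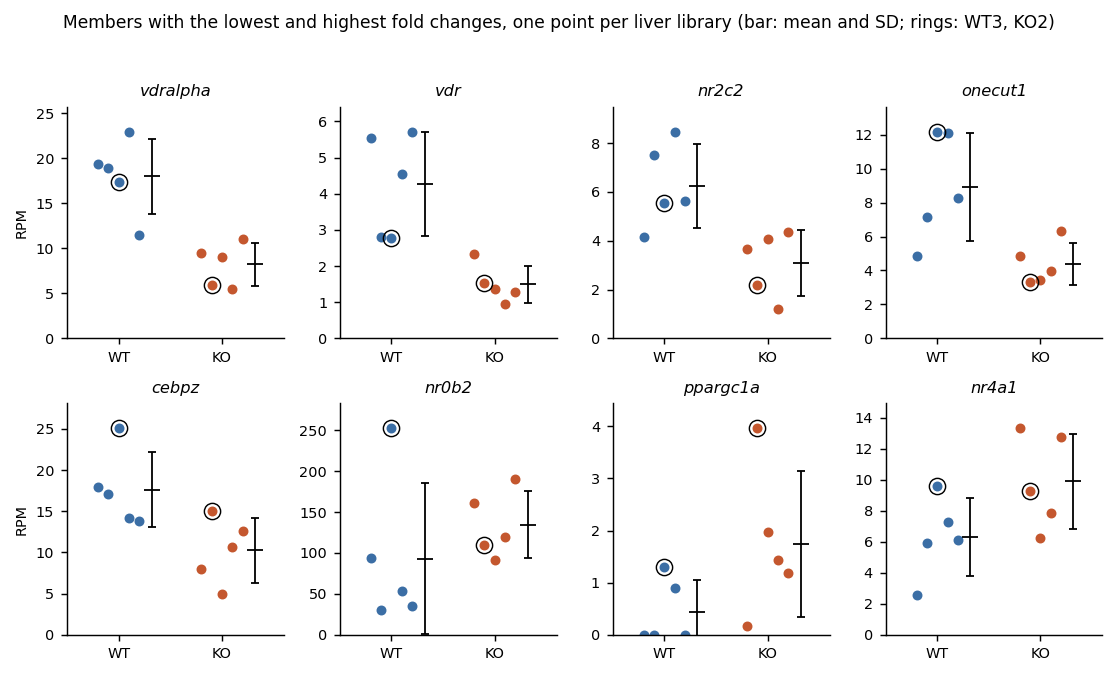
RPM in each of 5 WT and 5 KO liver libraries for 8 genes at either end of the fold changes, with mean and SD as bars and WT3 and KO2 ringed. On these deposited values, all KO points of vdralpha and vdr lie below all WT points, in nr0b2 the ringed WT3 stands at 252 RPM, and the other genes overlap.

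The pioneer factor gene foxa2, which opens chromatin at liver genes, had 22.1, 36.6, 40.8, 25.4 and 16.7 RPM in WT1 to WT5 and 18.0, 29.9, 25.2, 14.5 and 31.9 RPM in KO1 to KO5. KO4 lay below the WT range and the other KO libraries inside it. The log2 fold change of foxa2 was -0.22 ± 0.28, with an interval of -0.80 to 0.36. Of the 37 members, 17 or 45.9% had a 95% interval within 1 log2 unit of 0, that is within 2-fold, against 44.2% of all tested genes.

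The ONECUT factors, which direct liver and bile duct development, showed no call. The gene onecut1 (HNF6) had 4.84, 7.18, 12.2, 12.1 and 8.26 RPM in WT1 to WT5 and 4.83, 3.30, 3.44, 3.94 and 6.33 RPM in KO1 to KO5. Only KO5 lay above the lowest WT library. Its log2 fold change was -0.85 ± 0.32 (limma adjusted p = 0.180), while onecut2 averaged 24.1 ± 10.2 RPM in WT and 22.5 ± 8.61 in KO (-0.10 ± 0.30). The difference between them was not tested.

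CEBP factors regulate metabolic and acute-phase genes, and no gene of this family passed. The main hepatocyte member cebpa had 99.4, 110, 109, 95.6 and 75.9 RPM in WT1 to WT5 and 96.8, 108, 85.8, 66.1 and 49.2 RPM in KO1 to KO5. KO4 and KO5 were below all of WT, and the log2 fold change of -0.31 ± 0.21 (limma adjusted p = 0.505) became -0.10 after TMM scaling. With edgeR, whose 9 libraries did not hold KO5, the lowest library, it was 0.09. In limma without KO5 alone the log2 fold change of cebpa was -0.145. The values of cebpd and cebpg were -0.11 ± 0.33 and -0.58 ± 0.38 on the log2 scale.

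The gene cebpz, named for its binding to CCAAT boxes and known for a part in ribosome assembly, lay lower. It had 18.0, 17.1, 25.1, 14.2 and 13.8 RPM in WT1 to WT5 and 7.99, 15.0, 4.92, 10.6 and 12.7 RPM in KO1 to KO5. Only KO2 exceeded the lowest WT libraries. Its log2 fold change was -0.78 ± 0.29 (limma adjusted p = 0.179). In the RefSeq table (assembly ASM223467v1) it overlaps cebpzos, its opposite-strand neighbour, and the labels do not say whether counting used the strand, so their reads may not be fully separate. For cebpzos the log2 fold change was -0.58 ± 0.51.

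**Figure D4:**
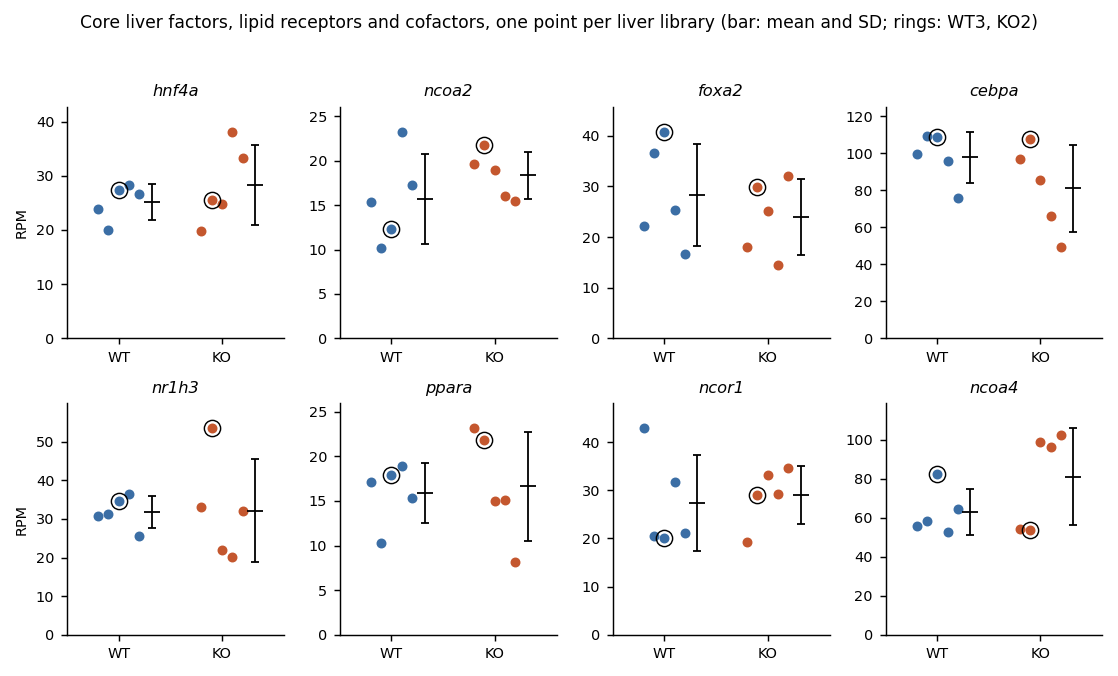
RPM in each of 5 WT and 5 KO liver libraries for 8 liver factors, lipid receptors and cofactors, with mean and SD as bars and WT3 and KO2 ringed. The groups overlap in each of the 8 genes, and none has an adjusted p under 0.05.

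Coactivators and corepressors, the proteins that receptors recruit, showed no call either. The coactivators ncoa2, ncoa3 and ncoa6 had log2 fold changes of 0.26 ± 0.25, -0.36 ± 0.28 and 0.07 ± 0.30. The gene ncoa4, whose product also carries ferritin to the lysosome, had 55.5, 58.1, 82.4, 52.9 and 64.7 RPM in WT1 to WT5 and 54.3, 53.5, 98.6, 96.04 and 102 RPM in KO1 to KO5. KO3, KO4 and KO5 lay above all of WT while KO1 and KO2 lay at its lower end. The log2 fold change of ncoa4 was 0.32 ± 0.22 (limma adjusted p = 0.508). In ncoa5, KO2 stood apart at 33.5 RPM and the other KO libraries lay between 7.64 and 15.1 RPM, with WT at 12.4 to 23.1 RPM. The corepressor gene ncor1, whose product recruits histone deacetylases, had 42.9, 20.5, 20.1, 31.7 and 21.2 RPM in WT1 to WT5 and 19.3, 29.1, 33.1, 29.1 and 34.6 RPM in KO1 to KO5. WT1 was the highest of all 10 libraries and KO1 the lowest, and the log2 fold change was 0.13 ± 0.25. The 5 coactivator genes had a median of 0.07 on the log2 scale.

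Without WT3 and KO2 the members that had not passed still did not, except nr0b2, but several fold changes moved. In cebpg the log2 fold change went from -0.58 to -0.96, in ncoa5 from -0.39 to -0.71 and in nr4a2 from -0.17 to -0.48. That of ncoa4 went from 0.32 to 0.56, and that of esr2 from 0.15 to 0.24. In onecut1 it went from -0.85 to -0.66, in nr4a1 from 0.61 to 0.78 and in vdr from -1.06 to -1.18 (limma adjusted p = 0.0772). In thrap3 it went from -0.47 to -0.61, in cebpzos from -0.58 to -0.45 and in pparg from 0.40 to 0.29. Values nearer to 0 changed sign in thrb (to 0.14), ppara (to -0.06), ppard (to 0.40), onecut2 (to 0.28), nr2e1 (from -0.21 to 0.17) and ncoa6 (to -0.05). The value of ncoa2 became 0.13, that of nr2c2ap 0.11, that of ncor1 0.03, that of nr1h3 -0.23 and that of cebpd -0.18.

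A further 4 of the 37 genes matched the symbol rule only by their first letters. They are thrap3, a splicing and transcription cofactor, nr2c2ap, named as a partner of nr2c2, cebpzos, and ppargc1a, a coactivator of mitochondrial and fasting genes. Their log2 fold changes were -0.47 ± 0.28, 0.33 ± 0.26, -0.58 ± 0.51 and 0.88 ± 0.44. The value of ppargc1a was 0 in WT1, WT2 and WT5, 1.29 RPM in WT3 and 0.906 RPM in WT4, and it was 0.167, 3.96, 1.97, 1.43 and 1.19 RPM in KO1 to KO5. It reached 1 RPM in exactly 5 libraries, 4 of them KO, so its level in KO brought it over the threshold, and the highest count was 18 reads. Without these 4 genes, 1 of 33 members was called, again lower in KO.

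Just under the threshold were esrrb and rarb, each with 4 libraries at 1 RPM or more. The estrogen-related receptor gene esrrb ranged from 0 to 3.32 RPM in WT and from 0 to 2.83 in KO, and the retinoic acid receptor gene rarb from 0 to 2.77 RPM in WT and from 0.297 to 3.20 in KO. The retinoid X receptor gene rxra reached 1 RPM in 3 libraries and foxa1 in 2. The genes ncoa1 and nr6a1 did so in 1 each, and nr5a1 and nr5a2 in none. Receptors that the table knows only by a LOC number could not be matched and were not analysed here.

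Genes related to these factors, as targets, partners or other liver transcription factors, were described from 10 lists. The lists were chosen with earlier results of these data known, so their counts are not independent evidence. Members themselves were left out of the counts. In the list of thyroid hormone handling and targets the median log2 fold change was 1.01, against -0.19 for all genes. In limma 3 of its 7 tested genes rose, against 1.17% of all genes. These were thrsp, a regulator of fat synthesis (2.45 ± 0.44, limma adjusted p = 0.00452), g6pc of glucose release (2.08 ± 0.32, 0.00138) and me1, a source of NADPH (1.73 ± 0.42, 0.0312). Robust variances in limma ended the call of thrsp, at an adjusted p of 0.0967. That of me1 was lost with edgeR (adjusted p = 0.0545), without a filter and without WT1, WT2, WT4, KO3, KO4 or KO5. The deiodinase gene dio1, which converts thyroid hormone, did not pass, with 95.7 ± 69.6 RPM in WT against 176.8 ± 67.8 RPM in KO.

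Among PPAR targets 1 of 14 tested genes fell in limma, against 1.68% of all genes. It was the mitochondrial thiolase gene acaa2, from 40.3 ± 9.10 to 9.57 ± 4.52 RPM (-2.06 ± 0.30, limma adjusted p = 0.00116). At an unadjusted limma p under 0.05, 6 were lower and 0 higher, against 11.7% and 4.64% of all genes. The list's median was -0.38 on the log2 scale and -0.17 after TMM, and its most read members acaa1, acsl1 and acadm had fold changes of -0.13, -0.55 and -0.40. A further list names hepatocyte genes as having HNF or CEBP sites, which were not looked for here in medaka. Of its 10 tested genes, 9 had positive fold changes, with a median of 0.68 on the log2 scale, and 0.89 after TMM. In limma hpx and g6pc rose and mttp fell, against 1.17% and 1.68% of all genes. The gene g6pc is also counted in the thyroid hormone list. The gene mttp, which loads lipoproteins with fat, had a log2 fold change of -0.77 ± 0.19 (limma adjusted p = 0.0295). The call of mttp was lost after TMM (adjusted p = 0.168), with edgeR (0.266) and in 8 of 10 fits that left out 1 library. The heme carrier gene hpx had a log2 fold change of 1.30 ± 0.24 (limma adjusted p = 0.00454), and its call was lost without a filter (adjusted p = 0.0679). At an unadjusted limma p under 0.05, 6 of the 10 were higher and 1 was lower, against 4.64% and 11.7% of all genes. edgeR called 2 of them, against 1.19% of all genes. DESeq2 and limma after TMM called 5 each, against 3.26% and 2.97% of all genes.

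In the other lists of targets, partners and coregulators limma called 0 genes. Over all genes, 4.64% were higher and 11.7% lower at an unadjusted limma p under 0.05. edgeR called 1.19% of all genes, DESeq2 3.26% and limma after TMM 2.97%. Of 9 bile acid and oxysterol receptor targets, 2 were higher and 1 was lower at an unadjusted p under 0.05, and edgeR called 0 and DESeq2 1. Of 7 xenobiotic receptor targets the same counts were 2, 0, 0 and 2, with 2 called in limma after TMM, and of 4 retinoid genes 1, 0, 0 and 0. None of 6 circadian partners and none of 7 receptor chaperones passed in limma at an unadjusted p under 0.05, in edgeR or in DESeq2. Of 11 coregulators outside the symbol rule limma called 0, 1 was lower at an unadjusted p under 0.05, and edgeR and DESeq2 called 0. Their median was -0.25 on the log2 scale, and -0.06 after TMM scaling.

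Among 27 other liver transcription factors 1 rose and 1 fell in limma, where 2.85% of all genes were called. limma after TMM called 3, edgeR 1 and DESeq2 4, against 2.97%, 1.19% and 3.26% of all genes. Their median was 0.00 on the log2 scale with 13 positive and 14 negative, and after TMM 0.15 with 21 positive and 6 negative. The gene that rose was klf3, a zinc finger factor, from 14.7 ± 5.28 to 60.9 ± 25.5 RPM (1.92 ± 0.32, limma adjusted p = 0.00248), and the one that fell was esr1. The most read of the rest, foxa3, xbp1 and atf4, had log2 fold changes of -0.06, -0.76 and -0.33. The hepatocyte character of the tissue showed in the summed level of the 5 matched hepatocyte markers, 5830 to 15800 RPM in WT and 15500 to 22200 RPM in KO, with WT3 highest in WT and KO2 lowest in KO. All 5, which also stand in the list named for HNF and CEBP sites, had positive fold changes, with a median of 0.86 on the log2 scale, and 1.08 after TMM. Of these markers 1 of 5, hpx, rose in limma, and 4 were higher at an unadjusted p under 0.05, against 1.17% and 4.64% of all genes. edgeR called 1, and DESeq2 and limma after TMM 4 each, against 1.19%, 3.26% and 2.97% of all genes. The 3 matched bile duct markers summed to 84.4 to 112 RPM in WT and 99.3 to 154 RPM in KO. Summed levels of the 2 matched macrophage markers were 546 to 1800 and 854 to 1880 RPM, of the 4 endothelial markers 17.7 to 43.5 and 27.4 to 47.6, and of the 4 stellate cell or fibroblast markers 13.9 to 18.7 and 9.99 to 22.0. Of the tested bile duct, macrophage, endothelial and stellate or fibroblast markers limma called 0, 1 of macrophages (cd74) was lower at an unadjusted p under 0.05, and edgeR and DESeq2 called 0. Of the 5 matched lymphocyte markers, summed at 13.5 to 26.6 and 19.3 to 34.2 RPM, rag1 was at 0 in all libraries. The fat cell list matched lpl alone, at 43.0 to 74.3 and 54.8 to 92.9 RPM, and the oocyte and muscle markers summed to at most 3.67 RPM in any library. Their part in the values of the members was not tested.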

How the data were processed

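Per the labels, liver RNA of 5 WT and 5 KO libraries was prepared by Lasy-Seq, a 3' RNA sequencing method. Salmon 1.4.0 and BWA 0.7.17-r1188 appear in the submitters' processing notes without a stated role. Nothing names the genome build. The authors deposited RPM, reads per 1000000 reads, not divided by gene length, for 25795 genes, and all IDs were matched to names by RefSeq gene ID. In every library all values were whole multiples of 1 read within 1e-06. Count tests did not include KO5, because its step of 0.0989 RPM lies close to 0.1, though its values too were whole multiples of 1 read. They thus differ from the main fit in both libraries and method, and the parts of these were not told apart. No 2 libraries of a group were duplicates (chi-square per degree of freedom 14.6 to 140.1).

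Genes reaching 1 RPM in 5 or more libraries were tested by limma 3.58.1 (R 4.3.3) with a variance trend on log2(RPM + 1), without covariates, two-sided, with Benjamini-Hochberg adjustment over 14984 genes. Reads recovered from 9 libraries were tested with edgeR 4.0.16 and DESeq2 1.42.0 as alternatives. Genes to which DESeq2 gave no adjusted p were counted as not called. The limma step was run on simulated counts with the same relative spread for all genes and no deviating library. That run did not cover the shift of all genes or the deviating libraries seen here. Full statistics are given for members with an adjusted p under 0.05, the 8 with the highest mean RPM and the 5 highest and 5 lowest fold changes. The values of 3 members are not reported here, though they stay in the counts over all 37. Other members are given by family, some of them, and the order of presentation, chosen after their values were seen. From the lists, called genes and up to 3 others by mean RPM are named. The members and lists were chosen with earlier results of these data known. Other alternatives were pseudocounts, filters, scalings, robust variances, a replicate block and leaving out each library. Leaving out WT3 and KO2 together was chosen after seeing the data. Lists for erythroid cells and acinar pancreas had no symbol match, and those for oocytes and muscle had no tested gene. Intervals cover the spread between libraries.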

Additional observations from a re-analysis of the deposited data

Results flagged for a closer look

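The value of nr0b2 in WT3, 252.5 RPM, stood far from the other WT libraries, which lay between 30.8 and 93.5 RPM. The gap to the nearest library made up 0.717 of the group's range, where 0.71 is the 95% limit for 5 values. The value of ncoa5 in KO2, 33.5 RPM, stood above the other KO libraries at 7.64 to 15.1 RPM, with a gap of 0.7103 of the range. With 68 groups of 5 screened, 2 stood apart, or 2.94%, and chance alone gives about 1 in 20 for values with a normal spread. The screen used RPM, not the log2 scale of the fits, on which high values stand less far apart.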

How the results depend on the processing

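Of 306 values for 15 named members under the alternatives, 281 kept their direction and side of the threshold, 14 lost a call (all of vdralpha), 2 gained one (nr0b2) and 9 changed sign. The members called lower were 1 as reported and 0 without a filter, after TMM, after median-of-ratios scaling, with the replicate block, with edgeR and without WT3 and KO2, and 0 to 1 when 1 library was left out. Members called higher were 0 to 1 when 1 library was left out and 1 without WT3 and KO2. Over all genes, 175 were higher and 252 lower as reported. These became 73 and 103 without a filter, 313 and 132 after TMM, 296 and 143 after median-of-ratios scaling, and 424 and 621 without WT3 and KO2. Leaving out 1 library gave 94 to 365 higher and 104 to 479 lower, the highest of both without WT3. edgeR called 131 higher and 47 lower, and DESeq2 310 and 179. The sign changed for nr1h3 after TMM (0.147), median-of-ratios scaling (0.131), with edgeR (0.207) and DESeq2 (0.203), and its values ran from -0.261 to 0.082 when 1 library was left out. It changed for cebpa with edgeR (0.089) and DESeq2 (0.080), both run without KO5, the lowest library of cebpa. When 1 library was left out, pparg ran from -0.053 to 0.587. None of these genes was called in any setting, and the cause of the changes was not tested. No pairing by replicate number was seen. The deviations of same-numbered libraries correlated at -0.081 to 0.001, and those of other pairs at -0.078 to 0.092. A pairing with a small effect could go unseen in such values. With the replicate block 145 genes were higher and 190 lower, and the adjusted p of vdralpha was 0.0967. Depth limits the lowest members, such as ppargc1a and pparg, which had 0 reads in some libraries.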

Other observations

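The receptor gene rora, whose product activates clock and lipid genes, falls outside the symbols used here and was named after its values were seen. It came from a later search for further receptors and for partner genes of the vitamin D receptors and nr0b2. Of the symbols searched, only rora and esr1 were found. The level of rora was 34.2, 23.8, 31.9, 26.1 and 22.5 RPM in WT1 to WT5 and 13.8, 21.1, 16.2, 14.8 and 16.9 RPM in KO1 to KO5. Every KO library lay below every WT library, as in 2.60% of all tested genes, and the log2 fold change was -0.70 ± 0.22 (limma adjusted p = 0.0996).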
